A study of Mus musculus with 5 samples.

Results

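The chemokine genes were examined in colon tumors that AOM/DSS treatment had induced in 2 Control and 3 SIGLEC12 mice. They were taken as every row of the expression table whose symbol begins with Ccl, Cxcl, Cx3cl or Xcl followed by a number, without pseudogene names. The rule matched 45 rows of 52143 in all. Because 5 symbols held more than 1 row, the row with the highest mean was kept for each symbol, which left 39 genes.

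The mice were females of 8 weeks at the start, on a protocol of tamoxifen for 5 days, then the carcinogen azoxymethane (AOM) at 10 mg/kg, then dextran sodium sulfate (DSS), which injures the colon epithelium, at 2.0% for 5 days with 14 days of recovery. Tumors were taken on day 87, after 4 DSS cycles. All mice in both groups carried Villin1-Cre-ERT, a tamoxifen-inducible Cre recombinase driven by the promoter of the intestinal epithelial gene Villin1. The SIGLEC12 mice carried, in addition, a conditional knock-in of human SIGLEC12 at the ROSA26 locus, placed behind the CAG promoter and an EGFP cassette that Cre removes. Expression of its product Siglec-XII, a receptor of the sialic acid-binding Siglec family, was therefore directed to the epithelium and not to the immune or stromal cells of the tumor. The Control samples are replicates 1 and 4 and the SIGLEC12 samples are replicates 2, 3 and 4. The series text names 3 mice for each condition, so 1 Control animal is not analysed here. The SIGLEC12 label was not checked against the human transgene, which was not analysed here.

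Chemokines are small secreted proteins that direct the migration of leukocytes by binding receptors coupled to G proteins. In inflamed colon and in colorectal tumors, the CXC chemokines that carry an ELR motif recruit neutrophils through CXCR2, interferon-induced CXC chemokines recruit T cells through CXCR3, and CC chemokines recruit monocytes, dendritic cells and lymphocytes. Others are made at steady state by epithelium or stroma and hold lymphocytes, plasma cells and dendritic cells in the mucosa and its lymphoid tissue.

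The deposited values are log2(TPM + 1), where TPM is a length-corrected transcript abundance, scaled to the same total over all RNA in every sample. Read depth is unknown. Protein-coding genes took 5.70% and 6.74% of the TPM total in Control replicates 1 and 4, and between 8.75% and 9.72% in SIGLEC12. The median log2 fold change of all 10338 genes tested was 0.38, so fold changes are given also after rescaling every sample to the same protein-coding total, which brought that median to 0.01. Levels in single samples are given as deposited. Control replicate 1 stood apart from the other samples. It had 7947 genes at a TPM of at least 1, against 9532 to 10090, its summed columnar epithelium markers were lowest (304 TPM against 890 to 1686) and its summed squamous keratinocyte markers were highest (2619 TPM against 361 to 908). The squamous list was chosen after its values were seen. Of the 9 columnar markers, Epcam, Krt8, Krt19, Lgals4 and Cdh1 were at 29.3 TPM or more in every sample, Krt18, Krt20 and Vil1 were at 6.17 TPM or more, and the intestinal transcription factor Cdx2 reached 1 TPM only in SIGLEC12 replicate 4. In bulk tumor RNA, fewer cells of a type and less RNA per cell cannot be told apart, for any difference below.

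Chemokine transcripts were a small part of the TPM total in these tumors. TPM is a share of all RNA, of which protein-coding genes took 5.70% to 9.72%, so low TPM values here partly reflect that share. The 39 genes summed to 27.2 TPM in Control replicate 1, 44.4 TPM in Control replicate 4, and 72.4, 79.9 and 40.6 TPM in SIGLEC12 replicates 2, 3 and 4. The groups overlapped, since SIGLEC12 replicate 4 lay below Control replicate 4. The mean sum was 1.80 times higher in SIGLEC12 as deposited, and 1.26 times higher relative to protein-coding TPM. Cxcl5 and Ccl6 alone took between 30.0% and 49.1% of the sum in each sample.

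Only 6 of the 39 genes reached a TPM of 1 in all 5 samples. They were Cxcl5, Ccl6, Cx3cl1, Ccl28, Ccl21a and Cxcl3. Testing required a TPM of 1 or more in 2 or more samples, and 12 chemokine genes qualified, adding Cxcl16, Cxcl2, Ccl21c, Cxcl1, Cxcl14 and Ccl27a. Ccl21c, Ccl27a and Cxcl14 reached a TPM of 1 in no Control sample, so they entered the test only through SIGLEC12 samples. Of the 27 genes not tested, 6 reached a TPM of 1 in exactly 1 sample, 18 lay above 0 but under 1 TPM in every sample, and Ccl26, Ccl21b and Ccl27b were listed at 0 in every sample.

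**Figure D1:**
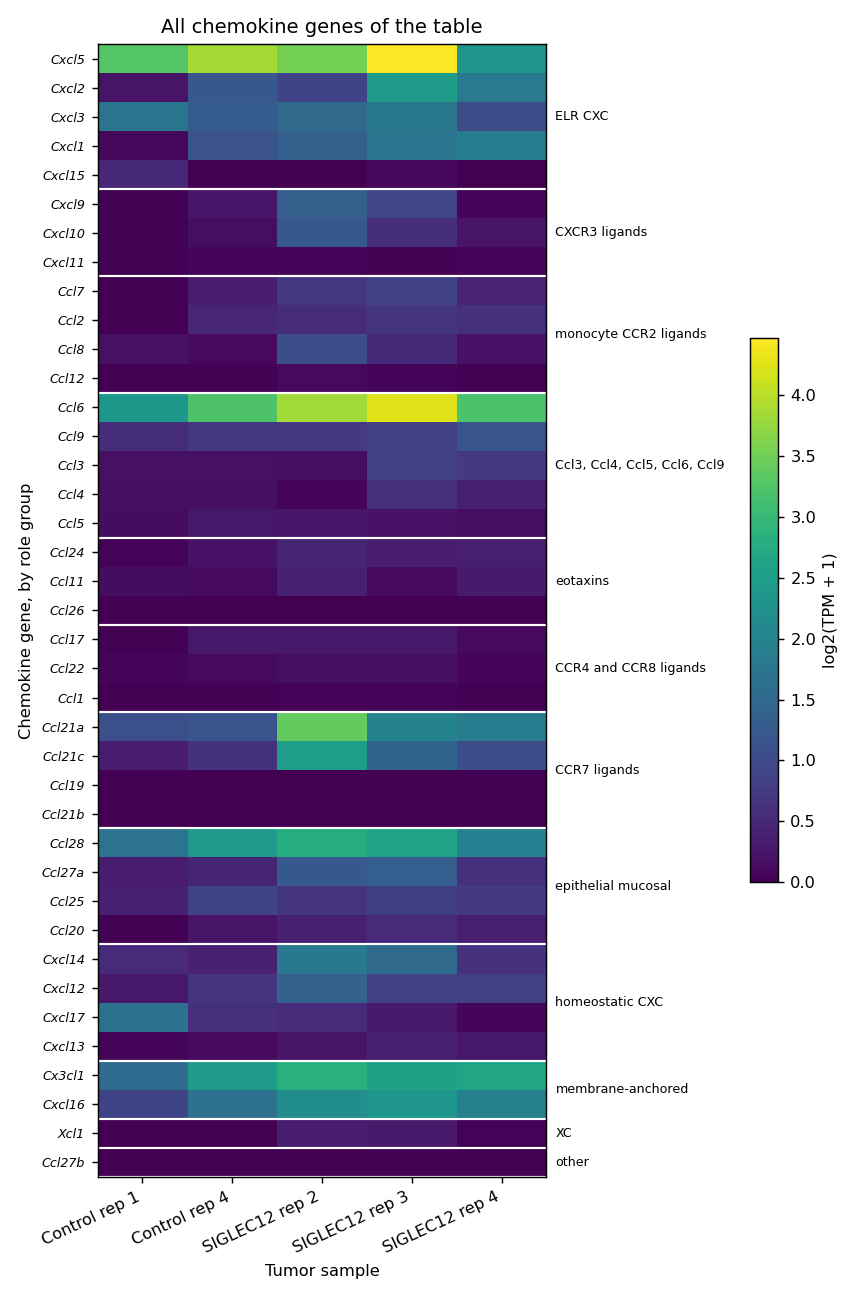
Level of each of the 39 chemokine genes (rows, by role group) in the 5 tumor samples (columns), as log2(TPM + 1) on the color scale. Cxcl5 and Ccl6 are the brightest rows, most rows are dark in every sample, and Ccl21a and Ccl21c are brightest in SIGLEC12 replicate 2.

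No chemokine gene passed an adjusted p under 0.05 with limma and Benjamini-Hochberg adjustment over all 10338 genes, and 0.0% of all genes did. At an unadjusted p of at most 0.05, 7 of the 12 tested chemokine genes were higher in SIGLEC12 and 0 lower, where 33.4% of all genes were higher and 0.909% lower. With a change of at least 2-fold added, 3 chemokine genes were higher (Ccl21a, Ccl21c and Cxcl1) and 0 were lower, where 3.97% of all genes were higher and 0.445% lower. The 7 include Ccl21c, Cxcl14 and Ccl27a, and the 3 include Ccl21c, genes that entered the test only through SIGLEC12 samples. After rescaling, 0 chemokine genes had an unadjusted p of at most 0.05, where 4.45% of all genes were higher and 6.31% lower, and with the 2-fold change 0.368% were higher and 1.37% lower.

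The groups did not overlap, with SIGLEC12 higher, for 7 of the 12 tested genes (Ccl21a, Ccl21c, Cxcl1, Cxcl16, Cx3cl1, Cxcl14 and Ccl27a), where 54.1% of all genes showed this. In the other direction there were 0 of 12, where 1.67% of all genes lay apart. After rescaling, Ccl21a, Ccl21c and Cxcl1 remained without overlap, 3 genes of 12, where 15.6% of all genes did, and 0 of 12 were lower without overlap, where 16.8% of all genes were. The mean was higher in SIGLEC12 for 10 of the 12 as deposited (87.2% of all genes) and for 9 after rescaling (51.1% of all genes). The median log2 fold change of the 12 was 0.86 as deposited and 0.50 after rescaling, beside 0.38 and 0.01 over all genes tested. These counts and medians include Ccl21c, Cxcl14 and Ccl27a, which entered the test only through SIGLEC12 samples. For these genes the filter itself favored a higher SIGLEC12 value, so their direction is no separate result. Ccl21a and Ccl21c are known as near-identical copies, and how reads were divided between them is uncertain. In the counts above they may therefore not be separate results.

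**Figure D2:**
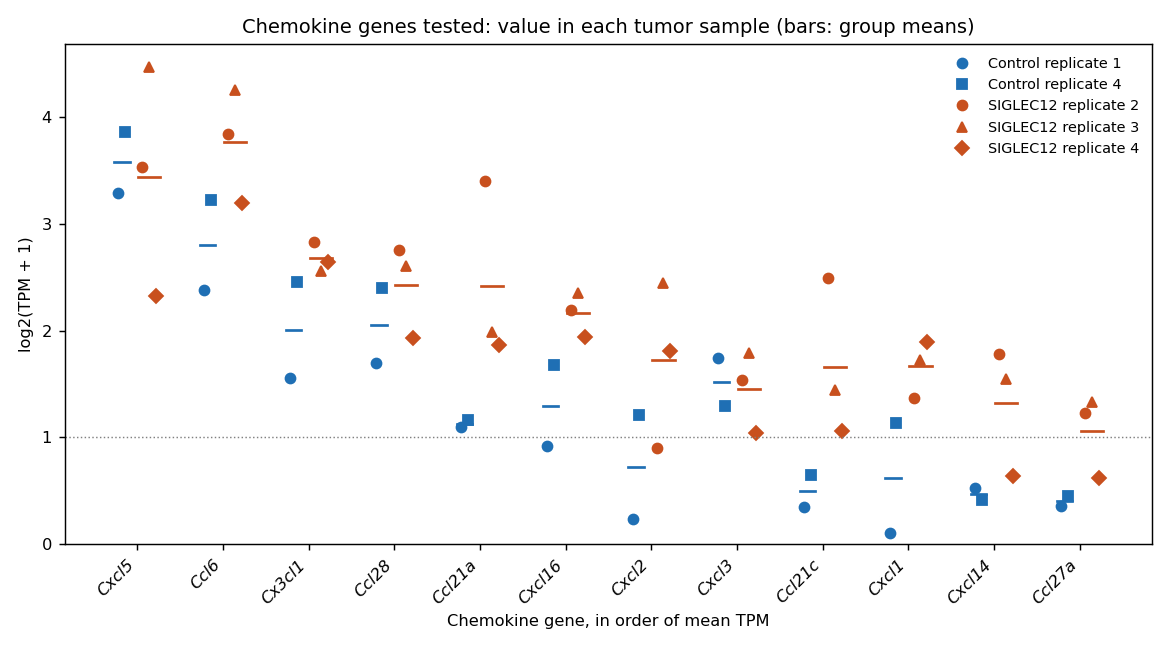
Level of the 12 tested chemokine genes in each tumor sample as log2(TPM + 1), in order of mean TPM, with blue for Control, red for SIGLEC12, horizontal bars for group means and the dotted line at a TPM of 1. Control replicate 1 (blue circle) is the lowest sample for 9 of the 12 genes, and the highest sample is a SIGLEC12 sample for every gene.

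The ELR CXC chemokines, which attract neutrophils through CXCR2, lie together on chromosome 5 of GRCm38 at chr5:90759360-90905938, in the order Cxcl5, Cxcl3, Cxcl15, Cxcl1 and Cxcl2. Within this stretch of 146.6 kb the mean levels ran from 0.102 TPM for Cxcl15 to 11.6 TPM for Cxcl5. Transcription of Cxcl1, Cxcl2 and Cxcl3 is known to be induced through NF-kB, so the bases just before their start sites are given from the RefSeq promoter table for GRCm38.p6, 5′ to 3′ on the strand of the gene. Capitals mark every match to a form of the NF-kB motif, GGG and TTCC with any 3 bases between, or to its reverse complement, GGAA and CCC with any 3 bases between. Overlapping matches run together as 1 stretch of capitals.
Cxcl1 (chr5:90891125-90891244, plus strand): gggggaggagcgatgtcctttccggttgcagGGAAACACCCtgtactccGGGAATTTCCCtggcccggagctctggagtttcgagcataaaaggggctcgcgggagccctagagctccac
Cxcl2 (chr5:90903779-90903898, plus strand): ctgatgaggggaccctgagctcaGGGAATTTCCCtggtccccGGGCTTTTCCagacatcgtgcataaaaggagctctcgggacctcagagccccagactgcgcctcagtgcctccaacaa
Cxcl3 (chr5:90785981-90786100, plus strand): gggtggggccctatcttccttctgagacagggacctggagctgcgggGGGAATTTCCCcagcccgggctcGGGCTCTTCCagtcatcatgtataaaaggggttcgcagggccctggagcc

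All 3 sequences hold GGGAATTTCCC, which matches in both directions. In the 250 bases before the start, 27 of the 39 chemokine genes had a sequence in the table, and 7 of these held the letters on either strand (Ccl1, Ccl9, Ccl20, Cxcl1, Cxcl2, Cxcl3 and Cxcl10), against 4.65% of 32851 promoters. These 27 genes held 33 promoters, and the chemokine matches were counted by gene but the 4.65% by promoter, so the shares are in unlike units. A match describes letters only, and binding was not measured.

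The levels of these genes were spread differently over the samples. Cxcl1 (ENSMUSG00000029380) was at 0.10 and 1.14 on the log2(TPM + 1) scale in Control replicates 1 and 4, and at 1.37, 1.73 and 1.89 in SIGLEC12 replicates 2, 3 and 4. All SIGLEC12 samples lay above both Controls, by a narrow margin over Control replicate 4. For Cxcl1 the log2 fold change was 1.04 as deposited, with an SE of 0.33 and a limma adjusted p of 0.103, 0.83 (SE 0.35, adjusted p = 0.464) after rescaling, and 0.53 without Control replicate 1.

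Cxcl2 stood at 0.23 and 1.21 in Control replicates 1 and 4 and at 0.90, 2.45 and 1.81 in SIGLEC12 replicates 2, 3 and 4. The groups overlapped, with SIGLEC12 replicate 2 under Control replicate 4. Cxcl3 had nearly equal means on that scale, 1.52 in Control (SD 0.31, n = 2) against 1.46 in SIGLEC12 (SD 0.38, n = 3), and its lowest value was in SIGLEC12 replicate 4. Cxcl2 and Cxcl3 share part of their sequence, with 4.37% of the 31-base words of the Cxcl2 transcript also in Cxcl3 and 8.11% of those of Cxcl3 in Cxcl2.

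Cxcl5, a neutrophil attractant made mainly by epithelium, had the highest mean level of the chemokine genes. It was at 8.75 and 13.5 TPM in Control replicates 1 and 4, and at 10.5, 21.0 and 4.02 TPM in SIGLEC12 replicates 2, 3 and 4. SIGLEC12 held both the highest and the lowest sample. The log2 fold change was -0.13 as deposited, with an SE of 0.59 and a limma adjusted p of 0.870, and -0.63 after rescaling (SE 0.63, adjusted p = 0.662). The sign as deposited depended on single samples, since the value was 0.15 without Control replicate 4 and 0.42 without SIGLEC12 replicate 4. Rescaled, it stayed negative with each sample left out, though only -0.045 without SIGLEC12 replicate 4. Cxcl15, known from lung epithelium, was at 0.419 TPM in Control replicate 1 and at most 0.064 TPM in the other samples.

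The 5 ELR genes summed to 11.8 and 17.5 TPM in Control and to 14.9, 30.3 and 10.3 TPM in SIGLEC12 replicates 2, 3 and 4. The ratio of the mean sums, SIGLEC12 over Control, was 1.27 as deposited and turned to 0.888 relative to protein-coding TPM, with overlapping groups. The neutrophil markers S100a8 and S100a9 were also highest in SIGLEC12 replicate 3, at 18.0 and 10.3 TPM, but at 9.99 and 5.73 TPM they were second highest in Control replicate 1, where Cxcl1 and Cxcl2 were lowest. The summed list of 8 neutrophil markers ran from 21.8 to 25.3 TPM in Control and from 24.9 to 54.0 TPM in SIGLEC12. Ly6g was the largest part in Control replicate 4 and in SIGLEC12 replicates 2 and 4. It was at 4.30 and 17.4 TPM in Control and at 15.1, 14.4 and 44.8 TPM in SIGLEC12. Ly6g, S100a8, S100a9, Csf3r and Cxcr2 each overlapped between the groups. Retnlg and Mpo were higher in every SIGLEC12 sample, at most 1.33 and 0.04 TPM, and Elane was at 0. The part of neutrophils in these values was not tested.

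The CXCR3 ligands Cxcl9, Cxcl10 and Cxcl11, which interferon induces and which attract activated T cells, occupy chr5:92321347-92365485, a stretch of 44.1 kb. None entered the test. Cxcl9 was at 0.015 and 0.203 TPM in Control replicates 1 and 4 and at 1.55, 0.905 and 0.046 TPM in SIGLEC12 replicates 2, 3 and 4. Cxcl10 was at 0.024 and 0.115 TPM in Control and at 1.35, 0.503 and 0.171 TPM in SIGLEC12. Both were high in SIGLEC12 replicate 2, intermediate in replicate 3, and close to Control in replicate 4. Cxcl11, annotated as a polymorphic pseudogene in GENCODE M21, stayed at or under 0.043 TPM in every sample.

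The sequence before the start of Cxcl10 is shown because this gene alone among the 27 with a promoter sequence held both motifs searched. Capitals mark matches to the NF-kB letters above and, first in the sequence, 1 match to the interferon response motif (TTTC and TTTC with any 2 bases between) on the opposite strand, where it reads GAAA and GAAA with any 2 bases between.
Cxcl10 (chr5:92348890-92349129, minus strand): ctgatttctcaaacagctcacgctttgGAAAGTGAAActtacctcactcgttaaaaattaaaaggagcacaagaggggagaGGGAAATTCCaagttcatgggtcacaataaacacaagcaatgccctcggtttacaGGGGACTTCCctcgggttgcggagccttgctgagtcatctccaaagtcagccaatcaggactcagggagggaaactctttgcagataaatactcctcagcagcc

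The interferon letters were before 3 of the 27 genes, Ccl19, Cxcl10 and Cxcl14, against 2.98% of all promoters, again counted by promoter and not by gene. Interferon gamma (Ifng) was at most 0.03 TPM, and each of 6 T cell markers stayed under 1 TPM in every sample.

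The CCR2 ligands attract monocytes. Ccl2, Ccl7, Ccl12 and Ccl8 lie with Ccl11 and Ccl1 at chr11:82035571-82305690, and none of these 6 genes entered the test. Ccl2 was listed at 0 in Control replicate 1 and was at 0.398 TPM in Control replicate 4, against 0.474, 0.601 and 0.531 TPM in SIGLEC12. Ccl7 was likewise listed at 0 in Control replicate 1, was at 0.274 TPM in Control replicate 4, and lay between 0.352 and 0.835 TPM in SIGLEC12. For both genes every SIGLEC12 sample was above Control replicate 4 as deposited, and after rescaling the groups overlapped. Ccl8 reached 1.11 TPM in SIGLEC12 replicate 2 and was between 0.080 and 0.430 TPM elsewhere. The 4 CCR2 ligands summed to 0.152 and 0.771 TPM in Control and to 2.30, 1.91 and 1.04 TPM in SIGLEC12, a ratio of the means of 3.79 as deposited and 2.76 relative to protein-coding TPM.

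A second group of CC genes, Ccl5, Ccl9, Ccl6, Ccl3 and Ccl4, lies at chr11:83525778-83664683. These chemokines attract myeloid cells and T cells, and Ccl6 is a myeloid chemokine of rodents. Ccl6 (ENSMUSG00000018927) was at 4.19 and 8.32 TPM in Control replicates 1 and 4 and at 13.3, 18.0 and 8.15 TPM in SIGLEC12 replicates 2, 3 and 4. The groups overlapped by a small margin, with SIGLEC12 replicate 4 just under Control replicate 4. For Ccl6 the log2 fold change was 0.96 as deposited, with an SE of 0.39 and a limma adjusted p of 0.138, 0.48 (SE 0.39, adjusted p = 0.601) after rescaling, and 0.54 without Control replicate 1.

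Its neighbors were far lower. Ccl9 reached 1.26 TPM in SIGLEC12 replicate 4 and was between 0.502 and 0.844 TPM in the other samples. Ccl3 and Ccl4, products of activated macrophages, were at 0.124 and 0.038 TPM in SIGLEC12 replicate 2, under both Controls, and highest in SIGLEC12 replicate 3 at 0.798 and 0.540 TPM. Ccl5, a product of T cells and NK cells, was between 0.103 and 0.214 TPM with its highest value in Control replicate 4. The 10 macrophage and monocyte markers summed to 14.0 and 8.36 TPM in Control and to 27.9, 33.6 and 11.5 TPM in SIGLEC12. Lyz2 led them with 13.5 TPM in SIGLEC12 replicate 3, the sample with the highest Ccl6, Ccl3 and Ccl4. Cd14 was also highest in that sample, and Cd68 and Adgre1 by a narrow margin. The markers C1qa, C1qb, C1qc, Csf1r, Itgam and Mrc1 were instead highest in SIGLEC12 replicate 2, where Ccl3 and Ccl4 were lowest. In Control replicate 1 Lyz2 was at 4.22 TPM, above the 1.61 TPM of Control replicate 4, while Ccl6 was lower there. The part of macrophages in the Ccl6 values was not tested.

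**Figure D3:**
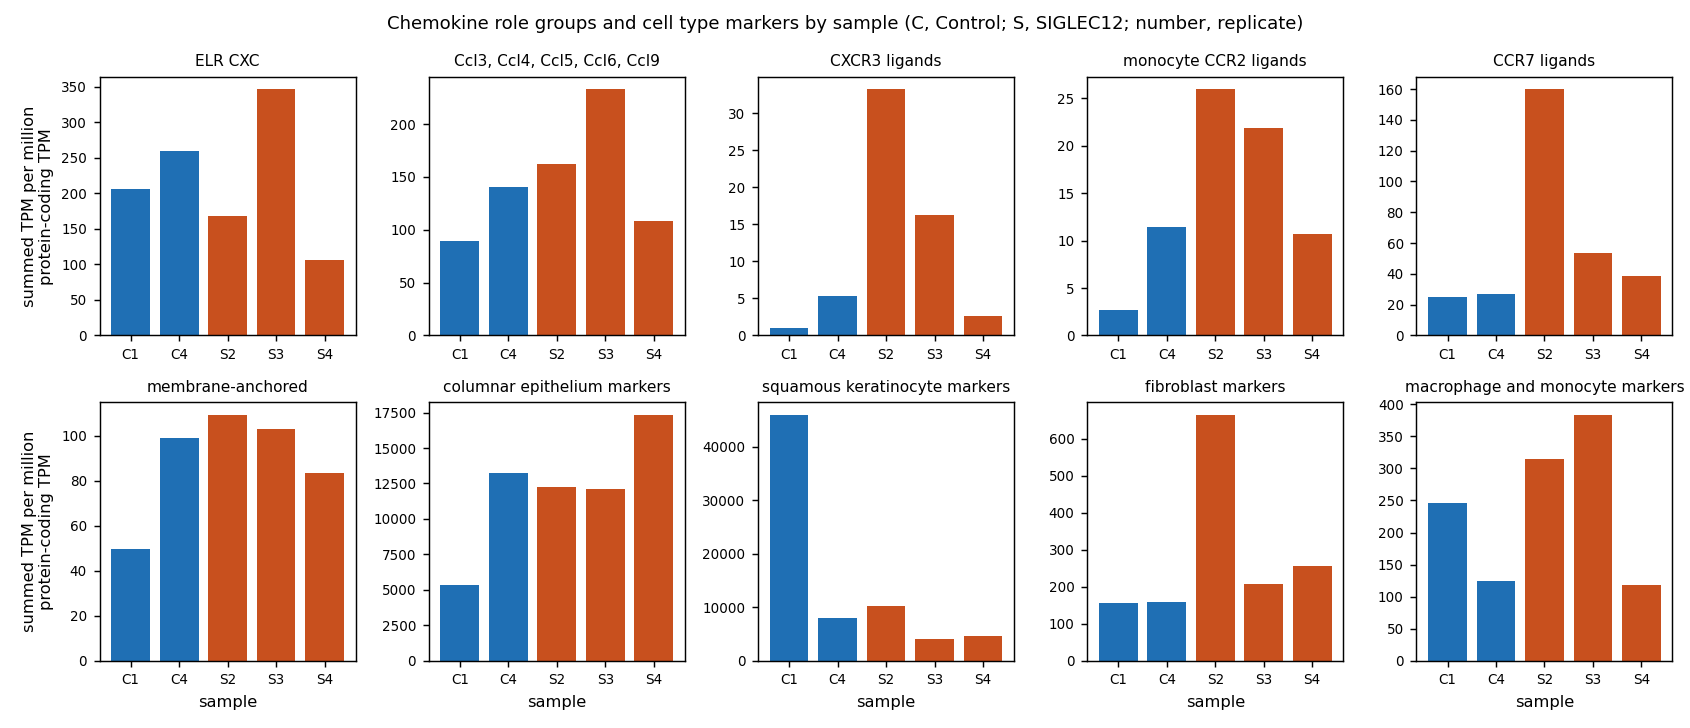
Summed TPM in each sample, scaled so that protein-coding genes total 1000000 TPM, (C, Control in blue; S, SIGLEC12 in red; the number is the replicate) for 6 chemokine role groups and 4 cell type marker lists, each panel with its own axis from 0. The CCR7 ligands and the fibroblast markers are both highest in SIGLEC12 replicate 2 (160 and 665), and the ELR CXC genes and the macrophage markers in SIGLEC12 replicate 3 (346 and 384).

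Of the CCR7 ligands, Ccl21c entered the test only through SIGLEC12 samples, so its direction and rank are no separate result. Ccl21a and Ccl21c had the largest differences of the tested genes as deposited and rescaled with all 5 samples. Without SIGLEC12 replicate 2, Cxcl2 (1.41), Cxcl1 (1.19), Ccl6 (0.925) and Cxcl16 (0.849) were above both. Without Control replicate 4, Cxcl1 (1.56), Cxcl2 (1.49) and Ccl6 (1.39) were above both. With a pseudocount of 0.1, Cxcl1 (2.24) was above both, and Cxcl2 (1.85) above Ccl21a only. CCL21 is made by lymphatic endothelium and lymphoid stroma and guides dendritic cells and naive T cells to lymph nodes. Ccl21a (ENSMUSG00000094686, chr4:42772860-42773993, minus strand) was at 1.14 and 1.24 TPM in Control replicates 1 and 4 and at 9.51, 2.96 and 2.65 TPM in SIGLEC12 replicates 2, 3 and 4. Control was tight, all SIGLEC12 samples were higher, and SIGLEC12 replicate 2 stood well above the other two. The log2 fold change of Ccl21a was 1.29 as deposited, with an SE of 0.45 and a limma adjusted p of 0.116, and 0.93 after rescaling (SE 0.48, adjusted p = 0.474). Without SIGLEC12 replicate 2 it was 0.80, and without Control replicate 1 it was 1.25.

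Ccl21c, annotated on the unplaced scaffold GL456350.1, followed the same order of samples, at 0.274 and 0.571 TPM in Control and at 4.62, 1.72 and 1.08 TPM in SIGLEC12 replicates 2, 3 and 4. Its log2 fold change was 1.16 as deposited, with an SE of 0.41 and a limma adjusted p of 0.116, and 0.94 after rescaling (SE 0.43, adjusted p = 0.465). It was 0.75 without SIGLEC12 replicate 2 and 1.01 without Control replicate 1. The Ccl21 genes are known as near-identical copies. Of the 31-base words of a Ccl21b transcript, 83.3% were also in Ccl21a, and 36.9% of those of Ccl21a in Ccl21b. A Ccl21c transcript was not compared, and how reads were divided among the copies is uncertain. Ccl21b was listed at 0 in every sample, and Ccl19, the other CCR7 ligand, was above 0 only in SIGLEC12 replicate 3, at 0.014 TPM.

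The summed markers of stroma were, like these genes, highest in SIGLEC12 replicate 2, but the order of the other samples differed. Fibroblast and endothelial sums were higher in SIGLEC12 replicate 4 than in replicate 3, the reverse of Ccl21a and Ccl21c. The 7 fibroblast markers summed to 8.83 and 10.7 TPM in Control and to 58.9, 18.2 and 24.8 TPM in SIGLEC12 replicates 2, 3 and 4, and the 5 endothelial markers to 0.939 and 0.990 TPM in Control and to 4.43, 1.87 and 2.50 TPM in SIGLEC12. The 5 smooth muscle markers were highest in SIGLEC12 replicate 2 as well, at 86.6 TPM against 36.1 to 40.5 TPM in the other samples. The part of these cells in the Ccl21a and Ccl21c values was not tested.

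**Figure D4:**
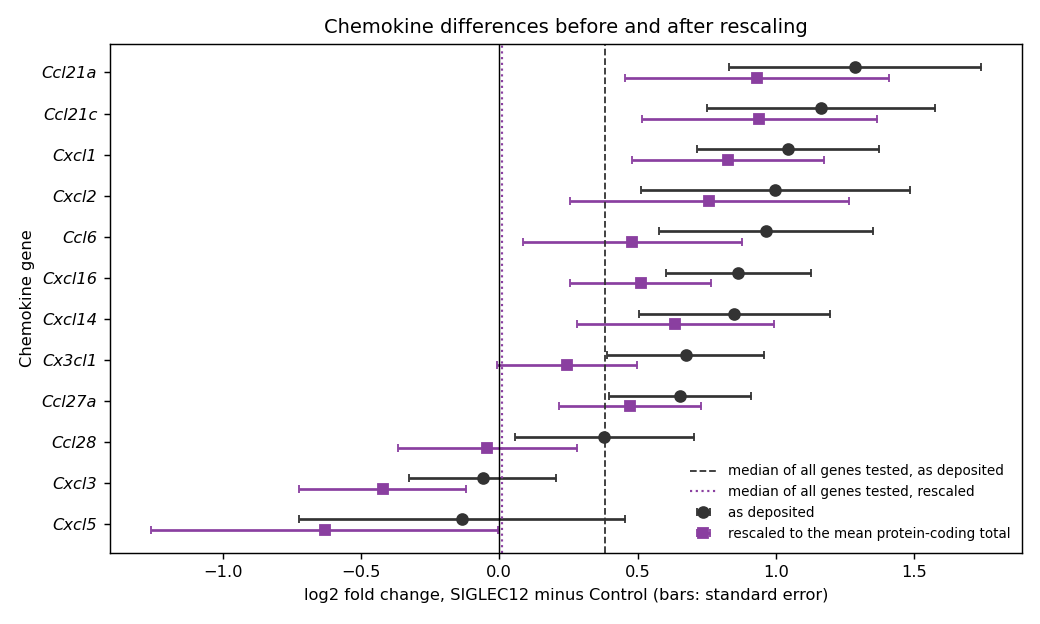
Log2 fold change of the 12 tested chemokine genes, SIGLEC12 minus Control, with SE as bars, as deposited (black circles) and rescaled to the mean protein-coding total (purple squares), beside the median of all genes tested under each scale (vertical lines at 0.38 and 0.01). Ccl21a, Ccl21c and Cxcl1 lie farthest right under both scales, and Cxcl3 and Cxcl5 lie left of 0 under both. Leaving out single samples turned the sign of Cxcl3 and Cxcl5 as deposited but not rescaled.

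Among the homeostatic CXC genes, Cxcl12, the stromal ligand of CXCR4, was at 0.222 and 0.583 TPM in Control and at 1.64, 0.803 and 0.791 TPM in SIGLEC12 replicates 2, 3 and 4. Its highest sample was again SIGLEC12 replicate 2. Cxcl14, a chemokine of epithelium and fibroblasts, was at 0.445 and 0.336 TPM in Control and at 2.44, 1.93 and 0.555 TPM in SIGLEC12, where replicate 4 sat close to Control. The difference of Cxcl14 (log2 fold change) was 0.85 as deposited, with an SE of 0.35 and a limma adjusted p of 0.141, and 0.64 after rescaling (SE 0.36, adjusted p = 0.492), and 0.91 without Control replicate 1. The groups overlapped after rescaling. Cxcl14, like Ccl21c, entered the test only through SIGLEC12 samples.

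Cxcl17, a chemokine of mucosal epithelium, ran the other way. It was at 2.18 and 0.520 TPM in Control replicates 1 and 4 and at 0.455, 0.238 and 0.044 TPM in SIGLEC12 replicates 2, 3 and 4. Both Controls were above every SIGLEC12 sample, as deposited and rescaled, and it was the only chemokine gene with that pattern, but it reached a TPM of 1 only in Control replicate 1 and was not tested. The summed squamous keratinocyte markers were also highest in Control replicate 1, with Krt14 at 1144 TPM there and between 50.8 and 199 TPM in the other samples. Of the 7 markers, Krt13 and Krt4 did not share this pattern, with Krt13 highest in SIGLEC12 replicate 2 (286 TPM against 253 TPM in Control replicate 1) and Krt4 lowest in Control replicate 1 (18.8 TPM). The part of squamous tissue in the Cxcl17 values was not tested. Cxcl13, the B cell attractant, was between 0.045 and 0.333 TPM.

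The epithelial CC chemokines draw lymphocytes and plasma cells to mucosa and skin. Ccl28, which recruits IgA plasma cells through CCR10, was at 2.24 and 4.29 TPM in Control replicates 1 and 4 and at 5.75, 5.07 and 2.81 TPM in SIGLEC12 replicates 2, 3 and 4. The groups overlapped. The mean of Ccl28 on the log2(TPM + 1) scale was 2.05 in Control (SD 0.50, n = 2) against 2.43 in SIGLEC12 (SD 0.44, n = 3), and after rescaling the means were 2.32 and 2.28, with the sign turned.

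Ccl27a, a keratinocyte chemokine that also binds CCR10, was at 0.280 and 0.373 TPM in Control and at 1.34, 1.52 and 0.537 TPM in SIGLEC12. Its log2 fold change was 0.65 as deposited, with an SE of 0.26 and a limma adjusted p of 0.132, and 0.47 after rescaling (SE 0.26, adjusted p = 0.489), and 0.60 without Control replicate 1. The SIGLEC12 samples were all above Control as deposited, and overlapped with it by a narrow margin after rescaling. Ccl27a also entered the test only through SIGLEC12 samples. Of the 31-base words of the Ccl27a transcript, 75.9% were also in Ccl27b, which was listed at 0 throughout. Ccl25, the ligand of CCR9 in small intestine, was between 0.319 and 0.873 TPM with its highest value in Control replicate 4. Ccl20, the ligand of CCR6, was at 0.024 and 0.179 TPM in Control and between 0.299 and 0.462 TPM in SIGLEC12.

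Both membrane-anchored chemokines, which serve as adhesion molecules until they are shed, were among the better measured genes. Cx3cl1 (ENSMUSG00000031778), the ligand of CX3CR1, was at 1.94 and 4.47 TPM in Control replicates 1 and 4 and at 6.10, 4.89 and 5.25 TPM in SIGLEC12 replicates 2, 3 and 4. The SIGLEC12 samples were close together and the Control samples far apart. The log2 fold change of Cx3cl1 was 0.67 as deposited, with an SE of 0.28 and a limma adjusted p of 0.148, 0.25 (SE 0.25, adjusted p = 0.673) after rescaling, and 0.22 without Control replicate 1. With both steps together the sign turned, at -0.14. Its neighbors on chromosome 8, Ccl22 and Ccl17, which attract regulatory and type 2 T cells through CCR4, stayed at or under 0.223 TPM.

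Cxcl16, the ligand of CXCR6, was at 0.890 and 2.20 TPM in Control and at 3.57, 4.10 and 2.84 TPM in SIGLEC12 replicates 2, 3 and 4. Every SIGLEC12 sample was above Control as deposited, but not after rescaling. Its log2 fold change of 0.86 as deposited, with an SE of 0.26 and a limma adjusted p of 0.101, had the smallest p of the chemokine genes. It became 0.51 (SE 0.25, adjusted p = 0.467) after rescaling, and was 0.49 without Control replicate 1. Columnar epithelium markers were likewise low in Control replicate 1, for example Epcam at 29.3 TPM against 78.4 TPM in Control replicate 4 and 114 to 132 TPM in SIGLEC12. Krt20 and Vil1 overlapped between the groups, at 30.0 and 21.3 TPM in Control replicate 4 against 17.5 to 55.9 and 15.6 to 29.1 TPM in SIGLEC12. The columnar sum was highest in SIGLEC12 replicate 4, at 1686 TPM, where Cxcl16 was lowest of the SIGLEC12 samples. The part of epithelium in the Cx3cl1 and Cxcl16 values was not tested.

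**Figure D5:**
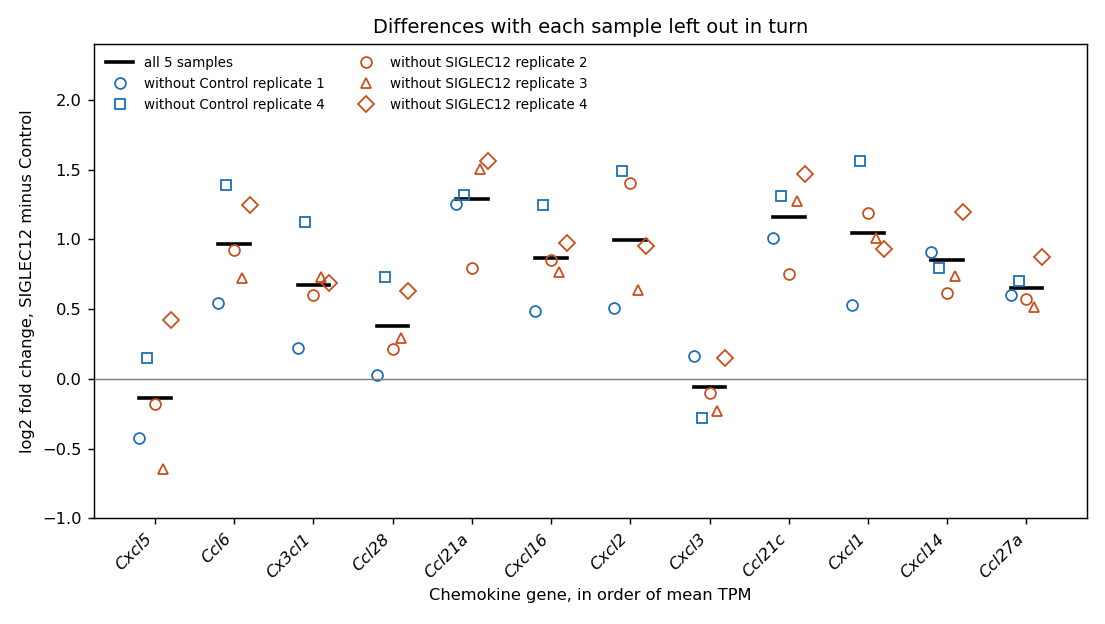
Log2 fold change of the 12 tested chemokine genes, SIGLEC12 minus Control, with all 5 samples (black bars) and with each sample left out in turn (open symbols). Leaving out Control replicate 1 (blue circles) gives the lowest value for Ccl6, Cx3cl1, Ccl28, Cxcl16, Cxcl2 and Cxcl1, and leaving out SIGLEC12 replicate 2 (red circles) the lowest for Ccl21a, Ccl21c and Cxcl14.

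The remaining ligands were near the lower limit of the table. The eosinophil attractants Ccl11 and Ccl24 were at most 0.373 TPM. Ccl24 did not overlap between the groups, at 0.026 and 0.164 TPM in Control and between 0.283 and 0.373 TPM in SIGLEC12. Xcl1, the ligand of XCR1 on cross-presenting dendritic cells, was listed at 0 in both Controls and was at 0.269, 0.237 and 0.025 TPM in SIGLEC12. Among the 27 genes not tested, SIGLEC12 was higher without overlap for 10 and lower for 1, Cxcl17, where 16.4% of all genes were higher without overlap when none was filtered out and 54.1% of those tested. Of the genes tested, 1.67% were lower without overlap. After rescaling 5 remained higher (Cxcl10, Ccl20, Ccl24, Cxcl13 and Xcl1) and 1 lower (Cxcl17), where 15.6% of the genes tested were higher and 16.8% lower. Shares among untested genes alone are not given, so these counts are descriptions only.

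Transcripts of the receptors were rarer than those of the ligands, with sums between 3.35 and 6.24 TPM. Of 23 receptor genes, 21 stayed under 1 TPM in every sample, and Cxcr4 reached 1.31 TPM in SIGLEC12 replicate 3 only. The scavenger receptor Ackr3, which takes up CXCL12, was the 1 receptor tested, at 0.812 and 0.760 TPM in Control and at 1.40, 1.65 and 0.885 TPM in SIGLEC12. Its log2 fold change was 0.36 as deposited, with an SE of 0.20 and a limma adjusted p of 0.230, and 0.09 after rescaling. Cxcr2, the receptor of the ELR chemokines, was between 0.311 and 0.590 TPM, with nearly equal highest values in Control replicate 1 and SIGLEC12 replicate 3.

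Of 21 regulators of chemokine transcription, 14 were tested. Their mean was higher in SIGLEC12 for 13, where 87.2% of all genes were, and for 9 after rescaling, where 51.1% were. None passed the adjusted threshold, and their median log2 fold change was 0.45, or 0.06 after rescaling. Il1b, the cytokine that induces ELR chemokines, was at 1.15 and 2.74 TPM in Control and at 4.60, 7.19 and 4.37 TPM in SIGLEC12 replicates 2, 3 and 4. The SIGLEC12 samples were all higher, with the highest value in replicate 3, as for Cxcl2, Cxcl5 and Ccl6. The log2 fold change of Il1b was 1.15 as deposited, with an SE of 0.30 and a limma adjusted p of 0.0974, and 0.76 after rescaling. The NF-kB inhibitor Nfkbib had a log2 fold change of 0.73, with an SE of 0.17 and a limma adjusted p of 0.0974, and the NF-kB subunit Rela one of 0.44 (SE 0.18, adjusted p = 0.144). After rescaling these were 0.33 and 0.01. Nfkb1, Nfkb2, Relb, Rel, Nfkbia, Nfkbiz, Tnfaip3, Stat3, Irf1 and Irf7 had log2 fold changes from near 0 (Rel and Nfkb1) to 0.74 (Irf1) as deposited.

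The tested genes peaked in different samples of the SIGLEC12 group. Of the 12, 5 were highest in SIGLEC12 replicate 2 (Cx3cl1, Ccl28, Ccl21a, Ccl21c and Cxcl14), 6 in replicate 3 (Cxcl5, Ccl6, Cxcl16, Cxcl2, Cxcl3 and Ccl27a) and 1 in replicate 4 (Cxcl1). The lowest value of 9 was in Control replicate 1, of 1 in Control replicate 4 (Cxcl14) and of 2 in SIGLEC12 replicate 4 (Cxcl5 and Cxcl3). Leaving out Control replicate 4 gave the only chemokine calls at an adjusted p under 0.05, Cx3cl1, Cxcl1 and Cxcl16 (limma adjusted p = 0.0414 each), where 15.5% of all genes passed, and leaving out Control replicate 1 gave none, also at the unadjusted threshold.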

How the data were processed

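RNA-Seq was analysed for colon tumors of 2 Control and 3 SIGLEC12 mice, grouped by the treatment labels. The deposited table holds 1 log2(TPM + 1) value per gene and sample, computed by the authors (0 value columns were left unmapped). Each column summed to between 999999 and 1000001 TPM once the log2 was undone. The submitters' processing notes name kallisto 0.45.0 and GRCm38, whereas the study's methods name another kallisto version and a human reference. The labels name a stranded total RNA kit and the methods an mRNA kit with technical replicate libraries, and how these were combined is not given in the sources used here. No batch or library date is given in the sources used here. TPM keeps no read depth, so no counting interval is given.

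Genes with a TPM of at least 1 in at least 2 samples (10338 of 52143) were compared by limma 3.58.1 under R 4.3.3 (lmFit, eBayes with a mean-variance trend, two-sided), with SIGLEC12 minus Control as the contrast, no covariate and Benjamini-Hochberg adjustment over all 10338. Fold changes are on the log2(TPM + 1) scale, which understates those of low genes. The thresholds were an adjusted p under 0.05 or, after the study's methods, an unadjusted p of at most 0.05, each with at least 2-fold. Coordinates and biotypes came from GENCODE M21 on GRCm38, which held 98.5% of the gene identifiers, and promoters from RefSeq for GRCm38.p6. The fit was tested on simulated data. The settings also tried were no filter, a filter at TPM 5, a pseudocount of 0.1, quantile normalization, median-ratio size factors, rescaling to the mean protein-coding total, and leaving out each sample.

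The members and gene lists were chosen with earlier results of these data known. Fold change, SE and adjusted p were printed for tested chemokine genes with an unadjusted p of at most 0.05 or a log2 fold change of at least 1 in size, and for the 3 of highest mean level. Genes under the filter were named where a sample reached a TPM of 1, and a few others to fill their role group after their values were seen. No p was computed for the summed chemokine level. Single values of some listed genes are not reported here.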

Additional observations from a re-analysis of the deposited data

How the results depend on the processing

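The limits are the 2 Control samples, the unknown depth and the low level of most chemokine genes. No paired analysis was possible because just 1 replicate number occurs in both groups. Where 1 Control is left out, the lone sample is assumed to vary like the SIGLEC12 group. The cause of each shift below was not tested.

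The 3 chemokine genes past the unadjusted threshold became 7 with a pseudocount of 0.1, and 0 with no filter, the filter at TPM 5, quantile normalization, median-ratio size factors or the protein-coding rescaling. The filter at TPM 5 left out Ccl21a, Ccl21c and Cxcl1, so its 0 is no retest of them. Leaving out samples gave 0 to 5, and 0 to 3 at the adjusted threshold. The median log2 fold change of 0.86 became 1.33 with the pseudocount, 0.27 with no filter (over all 39 genes), 0.53 with the filter at TPM 5 (4 genes), 0.54 with quantile normalization, 0.49 with size factors and 0.50 rescaled, and ran from 0.52 to 1.18 with samples left out. The log2 difference of the summed level was 0.83, and became 0.26 with size factors and 0.27 rescaled, with 0.47 to 1.18 when samples were left out. Of the regulators, 1 passed the unadjusted threshold, 0 with the filter at TPM 5, quantile normalization, size factors or rescaling, 0 to 2 with samples left out, and 0 to 1 at the adjusted threshold. The regulator past the threshold with all samples, Il1b, was likewise left out by the filter at TPM 5. Receptor counts were 0 in every setting run.

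Over all genes, the 410 higher became 1087 with the pseudocount, 45 with quantile normalization, 46 with size factors and 38 rescaled, and 143 to 1366 with samples left out. The 46 lower became 19 with the filter at TPM 5 and 131, 139 and 142 under those scalings, and 51 to 146 with samples left out. The adjusted count of 0 became 0 to 1059, with 1059 without Control replicate 4 (962 higher, 97 lower) and 1 without SIGLEC12 replicate 4.

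The sign turned for Ccl28 with quantile normalization (-0.013), size factors (-0.049) and rescaling (-0.044). It turned for Cxcl3 without Control replicate 1 (0.16) or SIGLEC12 replicate 4 (0.15), with samples left out giving -0.28 to 0.16, and for Cxcl5 without Control replicate 4 (0.15) or SIGLEC12 replicate 4 (0.42), with a range of -0.65 to 0.42. With rescaling and a sample left out together, an alternative added after the data were seen, Ccl28 was -0.32 without Control replicate 1, -0.22 without SIGLEC12 replicate 2 and -0.15 without SIGLEC12 replicate 3, and Cx3cl1 was -0.14 without Control replicate 1. Ccl21a, Ccl21c, Cxcl1, Cxcl2, Cxcl14, Cxcl16, Ccl6 and Ccl27a kept their sign in every setting run.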
